A study of Mus musculus with 8 samples.

Results

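The genes described here carry glucose and lactate across the cell membrane, break glucose down to lactate, and build or degrade glycogen. A fixed list of 35 gene symbols defined them: 4 transporters, 11 genes of the upper steps of glycolysis, 9 of the lower steps and 11 of glycogen metabolism. They were represented by 58 of the 55681 probes on the array, and 33 of the 35 were among the 13693 genes tested. The cells were C2C12, an established line of mouse myoblasts that fuse into multinucleated myotubes in differentiation medium. All samples were myotubes taken at day 4 of differentiation, after transfection with a control siRNA (4 samples) or an siRNA against macroH2A1.1 (4 samples). MacroH2A1.1 is a splice form of a histone H2A variant whose macrodomain binds ADP-ribose, and the series title places it in mitochondrial respiration and nuclear NAD+ use, which is the question behind the comparison. The siRNA dose, the time from transfection to harvest and the handling of the cultures are not given in the sources used here, so the p-values take in whatever spread these samples had, which may be partly technical. One label of the treated samples reads as a knockout, but their titles and the stated design give an siRNA, which is used here.

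Muscle fibres take up glucose through a basal transporter, GLUT1, and an insulin-responsive one, GLUT4, and either burn it through glycolysis or store it as glycogen. Many glycolytic steps are served by more than one gene, of which one is typical of adult muscle and another of proliferating or other cells, and the muscle form is switched on as myoblasts differentiate. Glycogen is started on the protein glycogenin, extended by glycogen synthase and branching enzyme, and degraded by glycogen phosphorylase, which phosphorylase kinase switches on and a glycogen-bound protein phosphatase switches off.

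The 8 arrays shared 1 slide, and between 46.9% and 49.8% of the spots on each were well above background, with 0 saturated. All 3 probes of Macroh2a1, the targeted gene, were lower in every siRNA sample than in any control sample, at 37.4% to 50.5% of the control level, and which splice form each probe reads was not determined here. Of 14 myotube markers, all 14 were tested, and 9 rose and 0 fell in limma with pairing, where 4.17% of all genes rose and 3.94% fell. Of 11 markers of cycling myoblasts, 9 were tested and 0 passed in that fit, while Myf5 and Pax7 did not pass the filter. Of 8 fibroblast markers 2 fell among 7 tested. Of 6 macrophage markers 0 passed among 5 tested (Ptprc did not pass the filter). Among them Cd68 was higher in all 4 pairs, with a log2 difference of 1.32 (SE 0.37, limma adjusted p = 0.090 with pairing). The other macrophage markers tested gave between -0.15 and 0.02. Of 6 adipocyte markers 2 rose among 3 tested (Adipoq, Plin1 and Lep did not pass the filter). Those that rose were Pparg and Fabp4, and Cebpa gave -0.30 without passing. Fabp4 read -4.55, -2.76, -2.97 and -5.22 in controls, some as dim as probes not above background, so its control level is uncertain. Without pairing 0 genes of these marker lists passed. Their part in the results below was not tested. In such bulk RNA, fewer cells of a type and less RNA per cell cannot be told apart.

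RefSeq promoter sequence (GRCm38.p6, the first listed start of each gene) was found for 34 of the 35 genes, and 250 bases upstream of the start were searched on both strands for short motifs. The pentamers ACGTG and GCGTG, the core of the element bound by hypoxia-inducible factors, occurred in 24 of the 34, against 38.6% of 27025 promoters of the same length. The E-box CANNTG, the kind of site bound by MyoD and myogenin, occurred in 24 of the 34, against 66% of all promoters, and its CAGCTG form in 9 of the 34, against 12.8%. The GC box GGGCGG was found in 17 of the 34 (32.9% of all promoters), and the TATA box TATAAA in 1 (13% of all promoters), that of Ppp1r3a. An E-box of the form CACGTG also contains ACGTG, so the searches overlap. These are matches of letters, not bound sites. The promoters below are shown because the 2 forms of phosphoglycerate mutase differed in their motifs and in their pattern over the arrays, and because Gyg and Phkg1 are among the genes that rose. For Pgam1 the capitals mark 3 matches to ACGTG or GCGTG on either strand, at chr19:41911621-41911870 on the plus strand, and it held 0 E-boxes. For the others the capitals mark E-boxes: 5 in Pgam2 (chr11:5803797-5804046, minus strand), 1 in Gyg (chr3:20155117-20155366, minus strand) and 5 in Phkg1 (chr5:129879089-129879338, minus strand), where adjoining matches overlap in a single run of capitals. Gyg also held 1 match to ACGTG or GCGTG, left in lower case, while Pgam2 and Phkg1 held 0.
Pgam1: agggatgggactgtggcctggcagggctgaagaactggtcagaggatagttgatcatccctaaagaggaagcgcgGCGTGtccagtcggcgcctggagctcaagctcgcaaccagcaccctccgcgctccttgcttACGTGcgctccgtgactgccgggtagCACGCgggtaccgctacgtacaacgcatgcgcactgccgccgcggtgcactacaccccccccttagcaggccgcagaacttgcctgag
Pgam2: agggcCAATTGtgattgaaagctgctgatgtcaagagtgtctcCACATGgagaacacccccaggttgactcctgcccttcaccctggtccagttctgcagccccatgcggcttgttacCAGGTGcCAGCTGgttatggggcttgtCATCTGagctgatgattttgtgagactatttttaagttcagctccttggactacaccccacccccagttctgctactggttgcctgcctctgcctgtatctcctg
Gyg: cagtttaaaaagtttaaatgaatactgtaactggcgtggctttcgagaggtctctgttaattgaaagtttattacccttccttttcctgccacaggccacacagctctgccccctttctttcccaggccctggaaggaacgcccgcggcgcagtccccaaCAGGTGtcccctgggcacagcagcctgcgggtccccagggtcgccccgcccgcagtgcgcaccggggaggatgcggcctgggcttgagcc
Phkg1: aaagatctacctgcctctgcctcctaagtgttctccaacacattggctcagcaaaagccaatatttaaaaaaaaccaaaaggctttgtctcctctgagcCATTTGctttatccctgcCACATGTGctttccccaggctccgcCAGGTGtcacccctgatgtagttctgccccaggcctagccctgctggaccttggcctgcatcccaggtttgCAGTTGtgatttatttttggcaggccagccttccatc

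Each value below is a log2 signal relative to the 75th percentile of its own array, so that 0 is the level of that percentile, and values of different genes are not set against each other. A difference is macroH2A1.1 siRNA minus control siRNA on the log2 scale. As a group the genes were near balance. The median difference of the 33 was 0.03 (all genes 0.00), with 20 above 0 and 13 below. Within the 4 replicate pairs the median was -0.01, 0.15, 0.00 and 0.05 (SD 0.07), and leaving out single samples moved it between -0.07 (without control replicate 4 or siRNA replicate 2) and 0.15 (without control replicate 2). In limma without pairing 0 of the 33 passed an adjusted p of 0.05, where 3 of all 13693 genes did (0.0219%). At an unadjusted p under 0.05 there were 7 of 33 (21.2%), against 12.1% of all genes.

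Replicate numbers paired the samples, and in limma with that number as a block 7 of the 33 passed an adjusted p of 0.05 (21.2%), against 8.11% of all genes. Of these 6 rose (4.17% of all genes rose) and 1 fell (3.94% of all genes fell). The 6 were Slc2a4, Ldhb, Gyg, Ppp1r3a, Phka1 and Phkg1, and the gene that fell was Pygb. By role, 1 of 4 transporters, 0 of 10 upper glycolytic genes, 1 of 9 lower glycolytic genes and 5 of 10 glycogen genes passed. Of the 5, Ppp1r3a and Phkg1 entered the test only through the siRNA arrays, being well above background on 1 and 2 of 4 control arrays. With probes required above background on all 8 arrays, 6 of 31 genes passed (10.3% of all genes), namely Slc2a4, Eno3, Ldhb, Pygb, Gyg and Phka1, of which 3 are among the 8 glycogen genes still tested. Over all tested genes of each role the median differences were -0.07, -0.02, 0.02 and 0.21. The last, for glycogen, takes in Ppp1r3a and Phkg1, so it too rests partly on genes that entered through the siRNA arrays. Leaving out a pair changed the count: without pair 1, 2, 3 or 4 it was 0, 1, 0 and 1, while over all genes it was 0, 134 (0.979%), 0 and 601 (4.39%). It was also 0 of 35 when probes below background were kept, where 0 of 23684 genes passed.

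**Figure D1:**
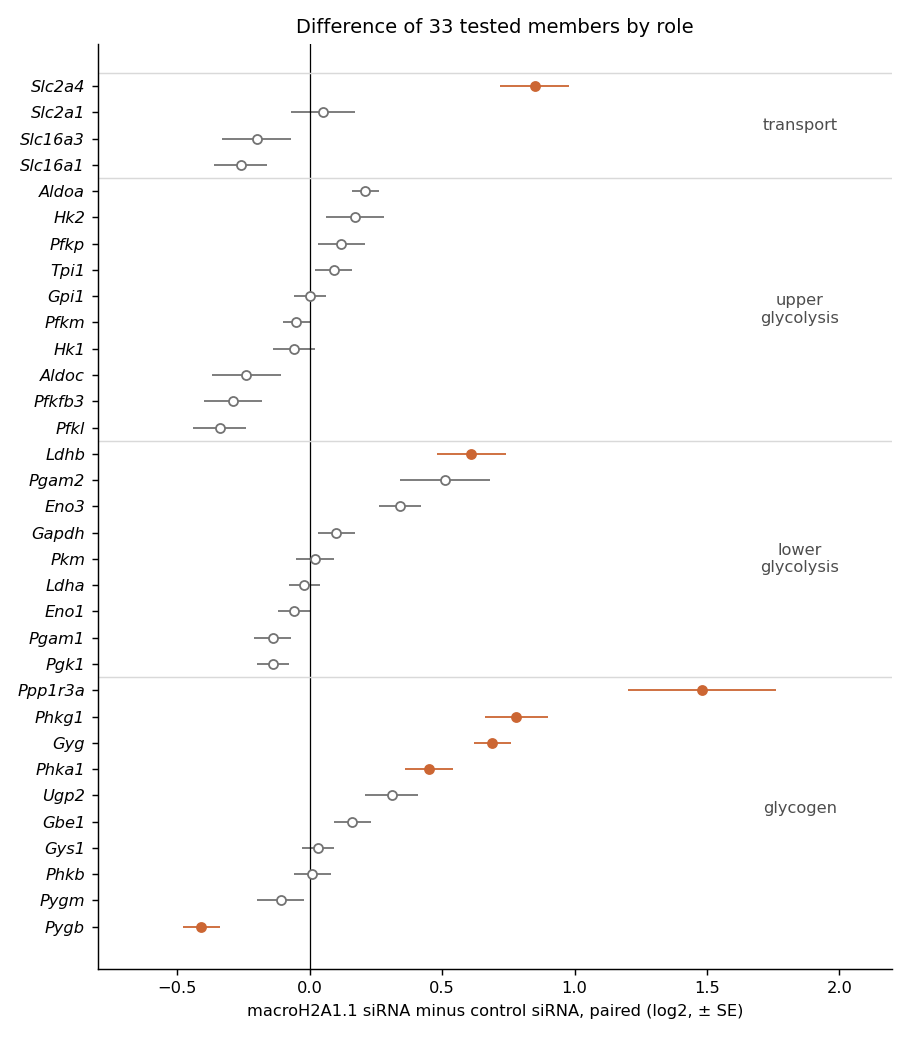
Difference between macroH2A1.1 siRNA and control siRNA samples for the 33 tested genes, from limma with pairing (log2, horizontal axis), grouped by role (vertical axis). Points are estimates, bars are 1 SE, filled points passed an adjusted p of 0.05; 5 of the 7 filled points lie in the glycogen group, of which Ppp1r3a and Phkg1 were above background on only 1 and 2 control arrays.

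Among the transporters, Slc2a4, which encodes the insulin-responsive glucose transporter GLUT4, rose to 180% of the control level. Its values were 0.72, -0.82, 0.09 and -0.02 in control replicates 1 to 4 and 1.12, 0.37, 0.98 and 0.89 in siRNA replicates 1 to 4. Control replicate 1 lay above siRNA replicate 2, so the groups overlapped, but every siRNA sample was above its own pair, by 0.41, 1.19, 0.89 and 0.92. The difference was 0.85 (SE 0.13, n = 4 pairs), with limma adjusted p = 0.028 with pairing and 0.325 without. It passed in 8 of 9 other processing settings, but not without pair 1, 2, 3 or 4 (adjusted p = 0.067, 0.076, 0.106 and 0.066). The probe lies at chr11:69756073-69756132 (mm9, minus strand).

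Slc2a1, which encodes the basal transporter GLUT1, gave no difference past the threshold. It read 4.05, 5.38, 4.20 and 3.32 in controls and 3.81, 5.78, 4.41 and 3.16 with the siRNA, a difference of 0.05 (SE 0.12, limma adjusted p = 0.810 with pairing), with 2 of 4 pairs higher. Its spread came from the replicates, since replicate 2 was the highest and replicate 4 the lowest in both groups. The lactate transporters Slc16a1 (MCT1) and Slc16a3 (MCT4) differed by -0.26 (SE 0.10, adjusted p = 0.160) and -0.20 (SE 0.13, adjusted p = 0.375) in the same limma fit. Slc16a1 was lower in all 4 pairs.

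**Figure D2:**
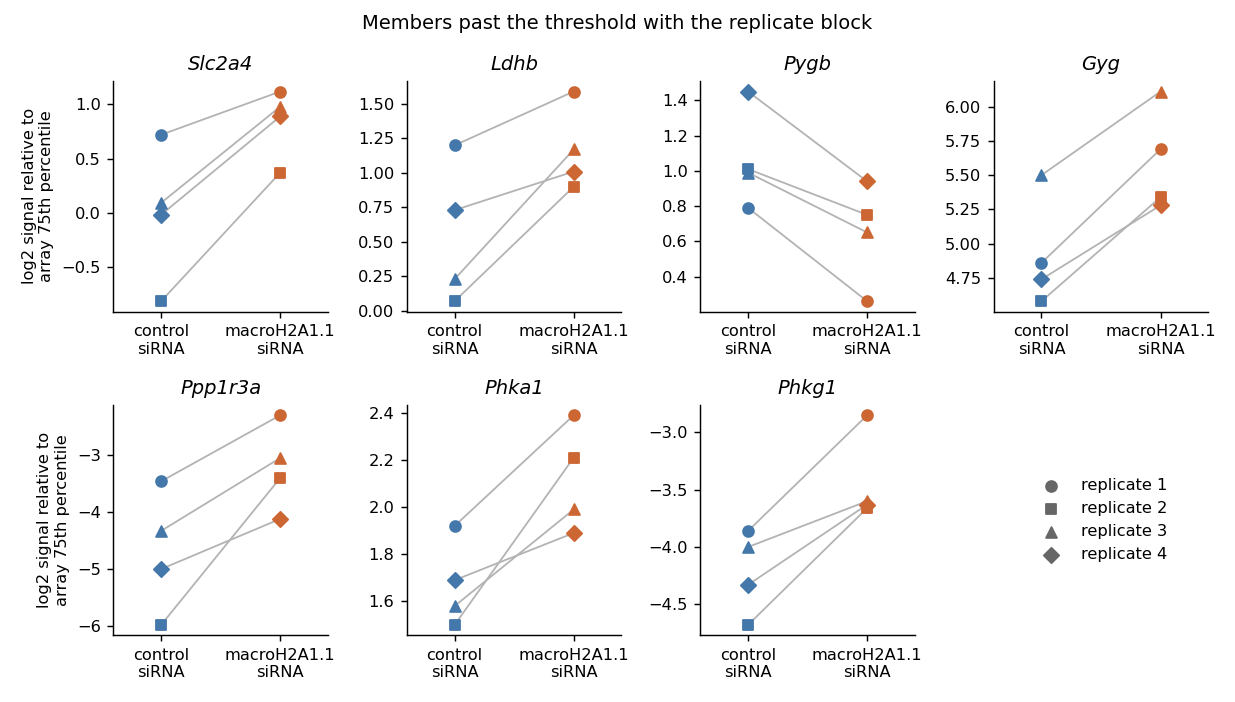
Log2 level, with 0 at the 75th percentile of each array (vertical axis, scaled separately for each gene) in control siRNA and macroH2A1.1 siRNA samples for the 7 genes that passed limma with pairing. Each marker shape is a replicate number and lines join the samples of a pair; all 4 lines rise for 6 genes and all 4 fall for Pygb.

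No gene of the upper steps passed either fit. The hexokinases Hk1 and Hk2, which trap glucose by phosphorylation, differed by -0.06 (SE 0.08) and 0.17 (SE 0.11). The chosen Hk1 probe maps to another chromosome than the gene. Hk1 probes on its own chromosome gave 0.21 (limma adjusted p = 0.129 with pairing, each probe tested alone) and 0.03. The phosphofructokinases, which catalyse the committed step, gave -0.05 (SE 0.05) for the muscle form Pfkm, 0.12 (SE 0.09) for the platelet form Pfkp and -0.34 (SE 0.10, limma adjusted p = 0.103 with pairing) for the liver form Pfkl. Pfkl was lower in all 4 pairs, by 0.60, 0.05, 0.46 and 0.24 in size. Pfkfb3, which makes the main allosteric activator of phosphofructokinase, differed by -0.29 (SE 0.11, adjusted p = 0.163 in the same fit).

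Aldoa, the muscle aldolase, had the smallest limma adjusted p of the upper steps with pairing, 0.071. It read 9.42, 9.69, 9.56 and 9.29 in controls and 9.68, 9.89, 9.77 and 9.47 with the siRNA. The pairs differed by 0.26, 0.20, 0.21 and 0.18, a narrow range around 0.21 (SE 0.05), although the groups overlapped. Aldoc, the brain form, differed by -0.24 (SE 0.13), and Gpi1 and Tpi1, the isomerases of the pathway, by 0.00 (SE 0.06) and 0.09 (SE 0.07).

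Fbp2, the muscle fructose bisphosphatase, runs the phosphofructokinase step in reverse and was not tested. Its probe was well above background on 0 of 4 control and 2 of 4 siRNA arrays. The readings were -5.24, -5.17, -5.38 and -6.52 in controls and -3.53, -3.86, -4.14 and -4.53 with the siRNA. The groups did not overlap, but with no control array above background the size is not measured. The siRNA mean was 1.38-fold above the background limit of the control arrays, taken as the lowest signal well above background on each array. That mean takes in siRNA arrays not well above background, so 1.38 is no lower bound on the size.

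In the lower steps, Ldhb rose. It encodes the heart-type subunit of lactate dehydrogenase, which favours the conversion of lactate to pyruvate. Control replicates 1 to 4 read 1.20, 0.07, 0.23 and 0.73, and siRNA replicates 1.59, 0.90, 1.17 and 1.01. The groups overlapped through control replicate 1, and the pairs differed by 0.40, 0.83, 0.93 and 0.28. The difference was 0.61 (SE 0.13, n = 4 pairs; 153% of control), with limma adjusted p = 0.049 with pairing and 0.403 without. It passed in 5 of 9 other processing settings, but not when any pair was left out. Its probe lies at chr6:142438770-142438829 (mm9, minus strand). Ldha, the muscle-type subunit, differed by -0.02 (SE 0.06, adjusted p = 0.824 in the paired limma fit).

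Eno3, the muscle enolase, was 1 of 2 tested genes of the set whose groups did not overlap, both higher with the siRNA and 0 lower. Of all genes 7.99% did not overlap, 4.28% higher and 3.71% lower. It read 7.48, 7.52, 7.34 and 7.33 in controls and 8.05, 7.81, 7.59 and 7.61 with the siRNA. Every siRNA sample exceeded every control, yet the difference of 0.34 (SE 0.08) just missed the threshold in limma with pairing (adjusted p = 0.053; 0.304 without). Eno1, the ubiquitous enolase, differed by -0.06 (SE 0.06).

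Pgam2, the muscle phosphoglycerate mutase, was higher in all 4 pairs without passing. It read 4.44, 3.45, 3.87 and 3.97 in controls and 4.83, 4.55, 4.38 and 4.01 with the siRNA, so that the pairs differed by 0.39, 1.1, 0.51 and 0.05. Most of the spread in the difference came from pair 2, where the control was the lowest of all samples. The difference was 0.51 (SE 0.17, limma adjusted p = 0.124 with pairing). The probe that gave these values spans 1219 bases of the genome at chr11:5701822-5703040 (mm9, minus strand) although it is 60 bases long, so it crosses a splice junction.
Pgam2 probe: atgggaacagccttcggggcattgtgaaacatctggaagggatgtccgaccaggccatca

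Pgam1, the non-muscle mutase, differed by -0.14 (SE 0.07) and was lower in all 4 pairs. Pgk1, phosphoglycerate kinase, also differed by -0.14 (SE 0.06) and was lower in all 4 pairs, and neither passed limma with pairing (adjusted p = 0.248 and 0.210). Pkm, pyruvate kinase, gave 0.02 (SE 0.07), and Gapdh, the glyceraldehyde phosphate dehydrogenase often used as a reference gene, gave 0.10 (SE 0.07), with its 7 probes between -0.06 and 0.14. For Gapdh, Eno1, Pgk1 and Hk1 the chosen probe maps to a chromosome other than that of the gene, where near-identical copies may lie, and their levels are uncertain to that extent. Choosing probes on the gene's own chromosome left the count of genes passing at 7 (8.14% of all genes).

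Among the glycogen genes, Gyg, Phka1 and Pygb were above background on every array and passed, and Phkg1 and Ppp1r3a passed from dim control signals. Gyg encodes glycogenin, the protein primer on which a glycogen particle is started, and rose to 161% of control. It read 4.86, 4.58, 5.50 and 4.74 in controls and 5.69, 5.34, 6.11 and 5.28 with the siRNA. Control replicate 3 lay above siRNA replicates 2 and 4, but the pair differences were close to each other, at 0.83, 0.77, 0.61 and 0.54. The difference was 0.69 (SE 0.07, n = 4 pairs), with limma adjusted p = 0.015 with pairing, the smallest of the set, and 0.316 without. Another probe, which overlaps the chosen one (chr3:20022033-20022092, mm9, minus strand) for most of its length, gave 0.68. Gyg was past the threshold in 8 of 9 other processing settings, and without pair 4 (adjusted p = 0.025) but not without pair 1, 2 or 3 (adjusted p = 0.075, 0.058 and 0.069).

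Ugp2, Gys1 and Gbe1, which serve the extension and branching of glycogen, did not pass with their chosen probes. Ugp2 makes UDP-glucose, the substrate of glycogen synthase. Its chosen probe read 3.53, 3.68, 3.42 and 3.37 in controls and 3.82, 3.92 and 3.52 in siRNA replicates 1, 3 and 4, the spot of replicate 2 having been set missing as an outlier. Over the 3 complete pairs the difference was 0.31 (SE 0.10, limma adjusted p = 0.123 with pairing). The second Ugp2 probe, chosen here after its values were seen, read 1.78, 1.79, 1.79 and 1.73 in controls and 2.30, 2.42, 2.42 and 1.99 with the siRNA, so its groups did not overlap, and its difference of 0.51 passed when each probe was tested alone (limma adjusted p = 0.047 with pairing, 0.197 without). In that fit 3.15% of all probes passed. Gys1, muscle glycogen synthase, gave 0.03 (SE 0.06) and Gbe1, the branching enzyme, 0.16 (SE 0.07, adjusted p = 0.221 in the paired fit), with Gbe1 higher in all 4 pairs.

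Phosphorylase itself did not rise. Pygb, the brain form of glycogen phosphorylase, fell to 75.3% of control. It read 0.79, 1.01, 0.99 and 1.45 in controls and 0.26, 0.75, 0.65 and 0.94 with the siRNA, so that the groups overlapped in the middle while all 4 pairs were lower, by 0.53, 0.26, 0.34 and 0.50 in size. The difference was -0.41 (SE 0.07, n = 4 pairs; limma adjusted p = 0.034 with pairing, 0.414 without). It passed in 7 of 9 other processing settings, but not without pair 1, 2, 3 or 4 (adjusted p = 0.131, 0.074, 0.109 and 0.076). The gene was measured by a single probe. Its probe lies at chr2:150656541-150656600 (mm9, plus strand). Pygm, the muscle form, gave -0.11 (SE 0.09) and was lower in 3 of 4 pairs.

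Of the phosphorylase kinase subunits on the list, Phka1 rose, while Phkg1 passed from dim control signals and Phkb did not pass. From the further glycogen genes, the subunits Phka2 (-0.02) and Phkg2 (0.17) did not pass either (limma adjusted p = 0.905 and 0.186 with pairing). Phka1, the muscle regulatory subunit of the kinase, rose to 137% of control. It read 1.92, 1.50, 1.58 and 1.69 in controls and 2.39, 2.21, 1.99 and 1.89 with the siRNA. Only siRNA replicate 4 lay below a control sample, and the pairs differed by 0.48, 0.71, 0.42 and 0.20. The difference was 0.45 (SE 0.09, n = 4 pairs; limma adjusted p = 0.047 with pairing, 0.261 without), from a probe at chrX:99710704-99710763 (mm9, minus strand). It passed in 6 of 9 other processing settings, but not when any pair was left out.

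Phkg1, the muscle catalytic subunit of the kinase, was the other gene whose groups did not overlap. Controls read -3.86, -4.68, -4.00 and -4.33, and siRNA samples -2.85, -3.66, -3.60 and -3.63, pair differences of 1.01, 1.02, 0.40 and 0.71. Only 2 of 4 control arrays were well above background, so the gene entered the test through the siRNA arrays and the control level is not well measured. The difference was 0.78 (SE 0.12, n = 4 pairs; limma adjusted p = 0.028 with pairing, 0.257 without), but 0.29 with normexp (adjusted p = 0.036). From the series table of the authors it was 0.16, which limma did not call (adjusted p = 0.095). Its second probe, which overlaps the first for most of its length, did not show the rise. It gave -0.13, from signals above background on 0 arrays. The chosen probe lies at chr5:130340040-130340099 (mm9, minus strand). Phkb, the other regulatory subunit, gave 0.01 (SE 0.07).

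The phosphatase subunits that bring protein phosphatase to glycogen gave signals near background. Ppp1r3a, the muscle subunit, read -3.46, -5.98, -4.33 and -5.00 in controls and -2.30, -3.40, -3.05 and -4.12 with the siRNA. Control replicate 1 lay above siRNA replicate 4, and the pairs differed by 1.15, 2.58, 1.28 and 0.88. Only 1 of 4 control arrays was well above background, so this gene too entered the test through the siRNA arrays, against a control level that is mostly unmeasured. The difference was 1.48 (SE 0.28, n = 4 pairs; limma adjusted p = 0.041 with pairing, 0.338 without), and it ranged from 0.32 to 1.67 over other settings. Its probe lies at chr6:14664312-14664371 (mm9, minus strand). Ppp1r3c, which encodes the subunit called protein targeting to glycogen, was not tested. It was above background on 0 control and 3 siRNA arrays, and read -6.49, -6.50, -5.07 and -6.13 against -3.75, -3.57, -3.13 and -5.62. The groups overlapped. The siRNA mean, which takes in an array not above background, was 1.38-fold above the background limit of the controls, which is no lower bound on the size.

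The 6 genes that rose stood beside a shift in myotube markers. The level of the 14 markers, each centred on its own mean and then summarised by the median, was between -0.45 and 0.07 in controls and between -0.11 and 0.45 in siRNA samples, and its pair differences were 0.38, 0.38, 0.34 and 0.35. The largest rises among markers that passed were those of Myh2 (2.19), Myh1 (1.49) and Myh8 (0.62), which encode myosin heavy chains, and Myom1 (0.58). Myh2 read -1.75, -4.00, -2.19 and -3.52 in controls, some near the level of probes not above background, so its size is uncertain. Myh4, another adult myosin, gave -1.05 and did not pass (limma adjusted p = 0.060 with pairing). The part of this shift in the glycogen and Slc2a4 values was not tested. Of the muscle forms, Pfkm gave -0.05 and Pygm -0.11, while Aldoa, Eno3 and Pgam2 were higher in all 4 pairs without passing.

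To set the muscle forms against their counterparts within each sample, the log2 level of the muscle form minus that of the other form was compared between the groups for 10 pairs of genes. Of the 10 contrasts, 8 were positive and 2 negative, 6 were positive in all 4 pairs and 1 was negative in all 4. In 0 of 10 the groups were apart, and 0 of 10 reached an exact p under 0.05 in the permutation test of 4 against 4 samples (two-sided, smallest possible p 0.029). The exact test within pairs cannot go below 0.125, which is the value of the 7 contrasts of constant sign, 0.179 after Benjamini-Hochberg adjustment over the 10.

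The most positive contrast was that of Slc2a4 minus Slc2a1, which changed by 0.80, with pairs at 0.65, 0.79, 0.68 and 1.07. Between samples of a group it varied more (SD 1.35 in controls and 1.39 with the siRNA), which gave an exact permutation p of 0.486 (adjusted 0.679). Pgam2 minus Pgam1 changed by 0.65 (pairs 0.69, 1.19, 0.68 and 0.06; exact p = 0.257), and Eno3 minus Eno1 by 0.41 (pairs 0.70, 0.27, 0.35 and 0.30; exact p = 0.200). Aldoa minus Aldoc changed by 0.45 (pairs 0.78, 0.04, 0.32 and 0.67), and Pygm minus Pygb by 0.30 (pairs 0.30, 0.46, 0.09 and 0.33). In the last of these Pygb fell and Pygm gave -0.11.

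Ldha minus Ldhb was negative in all pairs (-0.37, -0.81, -0.98 and -0.36; mean -0.63; exact permutation p = 0.171), with Ldhb higher by 0.61 and Ldha at -0.02. Hk2 minus Hk1 changed by 0.23, mostly through pair 2 (0.70, against 0.01 to 0.11 in the others), and changed sign, to -0.04, with an Hk1 probe on the gene's own chromosome. Pfkm minus Pfkl gave 0.29 and Pfkm minus Pfkp -0.16. Slc16a3 minus Slc16a1 gave 0.06 with 2 of 4 pairs positive, and its sign was not stable, at -0.16 with normexp background correction and -0.25 without siRNA replicate 2.

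**Figure D3:**
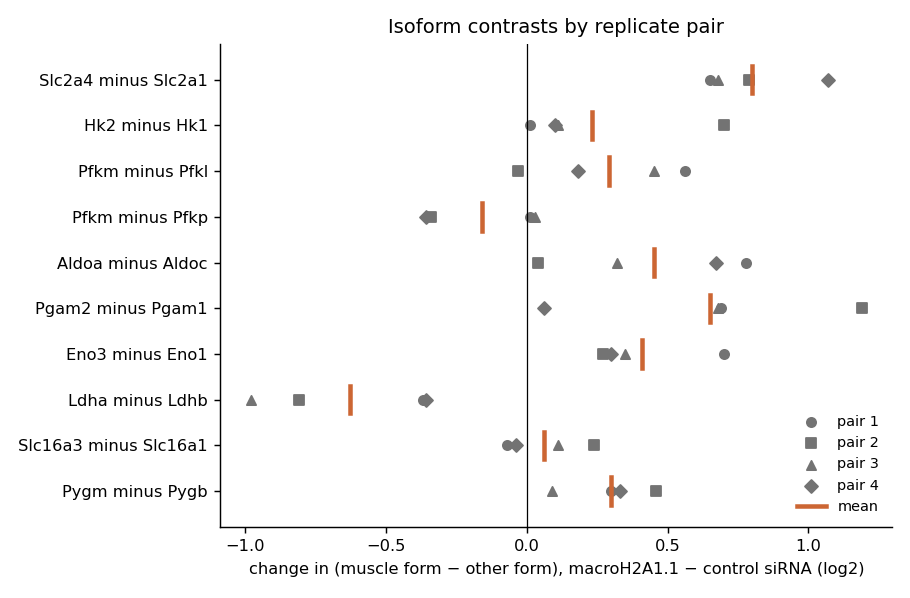
Change in the log2 level of the muscle form minus that of the other form, macroH2A1.1 siRNA minus control siRNA (horizontal axis), for 10 pairs of genes (vertical axis). Markers are the 4 replicate pairs and bars their mean; the 4 Ldha minus Ldhb values lie below 0, while all 4 values lie above 0 for 6 contrasts.

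Larger differences than those between the groups lay between replicates. Of the 33 genes, 15 were highest in replicate 2 of both groups (45.5%, against 17.7% of all genes) and 5 were lowest there (15.2%, against 16.8% of all genes). The replicate was picked after the values were seen, so this is a description without a test. The 15 were 6 of 10 upper glycolytic genes, 5 of 9 lower glycolytic genes, 2 of 4 transporters and 2 of 10 glycogen genes: Slc2a1, Slc16a3, Gpi1, Pfkl, Pfkp, Aldoa, Aldoc, Tpi1, Pgk1, Pgam1, Eno1, Pkm, Ldha, Gys1 and Gbe1. Gapdh and Hk1 are left out by their chosen probes, which map to another chromosome. Their probes on the gene's own chromosome were all highest in replicate 2 of both groups. Examples in control and siRNA replicate 2 are 8.77 and 8.88 for Gapdh, and 5.63 and 5.84 for Hk1. The 15 run from glucose entry to lactate export.

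Sizes were large for several of them. Replicate 2 exceeded the mean of the other replicates of its group by 1.53 in controls and 1.99 with the siRNA for Slc2a1, by 1.45 and 1.99 for Aldoc, and by 1.27 and 1.54 for Gbe1. The excess was 1.03 and 1.47 for Slc16a3, 0.96 and 1.03 for Pgam1, and 0.78 and 0.95 for Pgk1. Pgk1 read 7.74, 8.48, 7.81 and 7.56 in controls and 7.55, 8.47, 7.63 and 7.39 with the siRNA, the same order of replicate 2 over the rest in both groups. Pgam1 read 6.85, 7.66, 6.79 and 6.48 against 6.55, 7.58, 6.62 and 6.47.

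The 5 genes lowest in replicate 2 of both groups were Slc2a4, Ldhb, Pygm, Phkg1 and Phkb. Of these, Slc2a4, Ldhb and Phkg1 are among those that rose with the siRNA, Phkg1 from dim control signals. The share that rose among all genes lowest there was not computed, so no link is drawn from this overlap. Slc2a4 in replicate 2 lay below the mean of the others by 1.08 in controls and 0.63 in siRNA samples in size, and Ldhb by 0.65 and 0.36. Over the arrays, Slc2a1 and Slc2a4 were thus at opposite ends in replicate 2. Markers moved with this replicate too. Their centred level for cycling myoblasts was 1.15 in control replicate 2 and 1.29 in siRNA replicate 2, against -1.20 to 0.29 in the other 6 samples, with 7 of 9 markers highest there in both groups. That for myotubes was -0.45 and -0.11, the lowest of each group, with 8 of 14 markers lowest there in both groups. Their part in the replicate pattern was not tested. The 2 arrays of a number were neighbours on the slide, and position and culture cannot be told apart.

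Among the promoters of the 15 genes, 9 held ACGTG or GCGTG, against 15 of the other 19 with a promoter. Gapdh and Hk1 are counted among the 19 by their chosen probes. Of the 7 genes that passed with pairing 6 had a promoter sequence, and 4 of these held an E-box and 4 the hypoxia core, against 24 of the 34 for each.

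**Figure D4:**
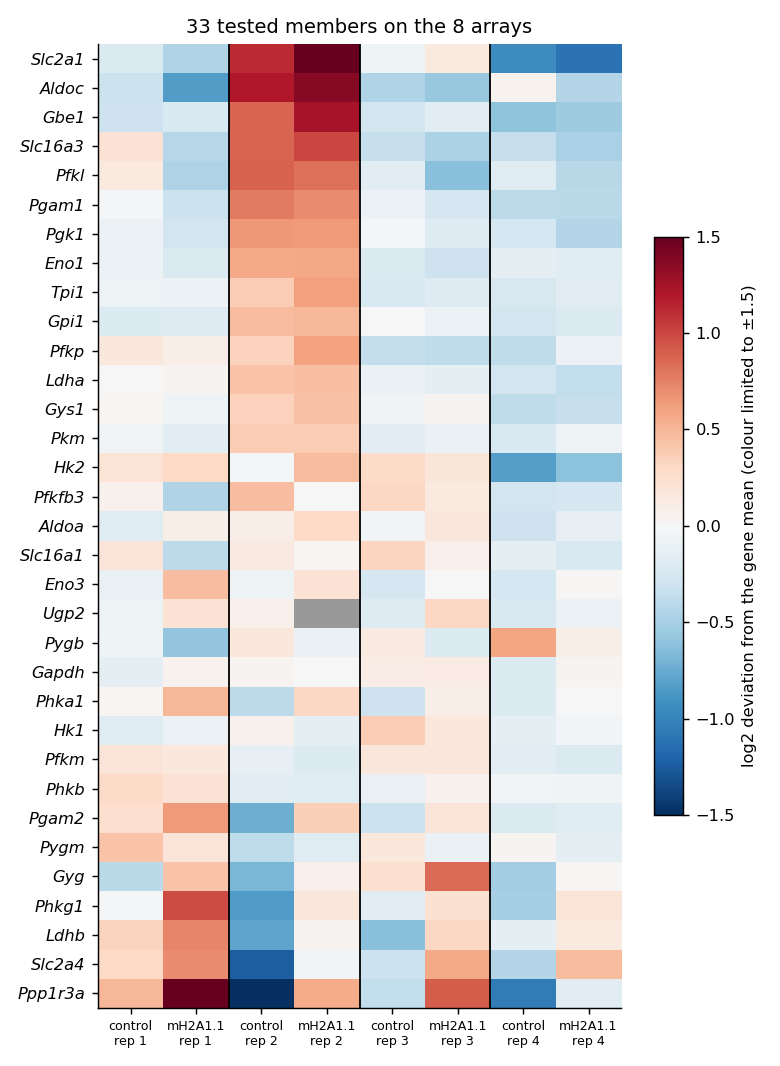
Log2 deviation of each of the 33 tested genes (vertical axis) from its own mean over the 8 arrays (horizontal axis, samples of a pair side by side; colour limited to 1.5 in size, grey for a missing spot). Genes are ordered by their replicate 2 values; 15 were highest in replicate 2 of both groups, from Slc2a1 at the top, whereas Slc2a4 and Ppp1r3a lie at the bottom.

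Other genes of the pathways, from lists beyond the 35, moved little. Of 28 further genes of glucose transport, glycolysis and pyruvate entry, 16 were tested and 0 passed in limma with pairing (median -0.03). The smallest adjusted p was that of Tigar, a phosphatase that lowers the phosphofructokinase activator. It read 1.14, 1.04, 1.02 and 1.16 in controls and 1.36, 1.48, 1.26 and 1.32 with the siRNA, a difference of 0.26 (SE 0.07, limma adjusted p = 0.075 with pairing). Of the 16, 2 had groups that did not overlap (7.99% of all genes), Tigar higher and Mpc2, a subunit of the mitochondrial pyruvate carrier, lower (-0.17, limma adjusted p = 0.165 with pairing).

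Of 25 further glycogen genes 19 were tested, 2 rose and 0 fell (10.5%, against 8.11% of all genes; median 0.10). Nhlrc1 encodes malin, a ubiquitin ligase of glycogen-associated proteins, and gave 0.42 (SE 0.07, limma adjusted p = 0.031 with pairing, 0.668 without). It was higher in all 4 pairs.

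Of 30 regulators of glucose uptake and glycolysis, all tested, 1 rose and 1 fell (6.67%, against 8.11% of all genes; median 0.05), a share no higher than that of all genes. Prkaa2, a catalytic subunit of the AMP-activated kinase that prevails in skeletal muscle, rose by 0.45 (SE 0.06, limma adjusted p = 0.019 with pairing, 0.598 without), from -0.11, -0.77, 0.35 and 0.05 to 0.35, -0.25, 0.81 and 0.42. Txnip, an arrestin-like protein that restrains glucose uptake, fell by 0.39 (SE 0.06, limma adjusted p = 0.026 with pairing, 0.539 without), from 3.83, 3.29, 4.08 and 3.90 to 3.55, 2.86, 3.65 and 3.49. For both the change was seen in all 4 pairs although the groups overlapped. Hif1a, the hypoxia-inducible subunit, gave -0.16, Mlxipl, a glucose-sensing factor, -0.12, and the insulin pathway genes Insr and Akt2 0.02 and 0.06, none of which passed.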

How the data were processed

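Total RNA (500 ng per sample) of 4 control siRNA and 4 macroH2A1.1 siRNA samples was labelled with Cy3 and hybridised to 1-colour Agilent arrays, per the labels' protocols. The file headers name Agilent Feature Extraction 10.7.3.1 and build mm9, and the authors' deposited spot intensity is that software's background-subtracted processed signal. The deposited series values are log2, as a comparison with the scanner values showed (r from 0.9976 to 0.9995 with each array's log2 mean signal), with the same median (6.34) in all 8 columns, and were used as an alternative only; their background handling stays unknown. There were 0 columns of other samples.

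From the log2 of that signal the 75th percentile of the array was subtracted, leaving out control spots, with outlier spots (143 to 236 per array) missing and repeat spots averaged. RefSeq (GRCm38.p6) gave symbols by accession for 27509 probes, by symbol for 3549 and by older symbol for 404, while 1350 kept the file's name and 22869 had none. A probe was kept (24989 were) if every array of either group had it well above background, and a gene took its probe of highest mean. limma 3.58.1 in R 4.3.3 (lmFit, eBayes, two-sided, Benjamini-Hochberg over 13693 genes) was run without pairing and with replicate number as a block. A trial of the code on simulated arrays used independent noise, so it says nothing about the paired fit when samples deviate in pairs. Same-numbered samples deviated together from their group means (r = 0.6107, 0.5507, 0.6611 and 0.4106), above the limit of 0.1 in all pairs, so the numbers pair the samples by that rule. The labels give no origin of the pairing.

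Isoform contrasts were tested by exact permutation in Python 3.11.15. Every gene of the set is accounted for; values in every sample are given mainly for those past the threshold or near it, and from other lists up to 4 genes past the threshold or the 1 with the lowest p. Myh4, Cd68, Phka2, Phkg2, a few regulators, Pgk1, Pgam1, Aldoa and Slc2a1 were named after their values were seen. A further result from the other lists is not reported here. The members and lists were chosen with earlier results of these data known. Alternatives were normexp (offset 50), quantile normalization, median centring, other filters and probe choices, trended robust eBayes, array row and column as blocks, and left-out samples. The number of arrays limits the precision.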

Additional observations from a re-analysis of the deposited data

Results flagged for a closer look

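Of 86 sets of 4 values examined, 9 had a sample that stood apart from the other 3 by Dixon's criterion. Chance gives about 1 in 20 for independent sets, but these sets share genes and arrays, so the count is not weighed against that rate. In 7 of the 9 a single replicate 2 sample was highest. For the siRNA group these were Slc16a3 (4.19, others 2.70 to 2.76), Pfkl (3.42, others 1.96 to 2.17), Tpi1 (7.86, others 7.05 to 7.15), Pgam1 (7.58, others 6.47 to 6.62), Eno1 (8.07, others 7.18 to 7.31) and Pkm (7.62, others 7.07 to 7.16). Eno1 stood apart in the control group too (8.06, others 7.27 to 7.40). Eno3 minus Eno1 was low in control replicate 2 (-0.44 after centring, others 0.10 to 0.18), and Phkg1 was high in siRNA replicate 1 (-2.85, others -3.66 to -3.60).

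Below the filter on dim probes, outside the comparison between groups, Fbp2 and Ppp1r3c gave signal above background on 2 and 3 siRNA arrays and on 0 control arrays. Their siRNA means were each 1.38-fold above the background limit of the control arrays, which is no lower bound on the size. The raw log2 differences, 1.56 and 2.03, are read against control signals not above background and are no measure of size.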

How the results depend on the processing

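The count of 7 genes past the threshold with pairing (8.11% of all genes) became 3 with median centring (5.81%), 0 with no filter (0%), 11 with trended robust eBayes (15%) and 0 with no replicate block (0.0219%), and lay between 0 and 1 when a pair was left out. It was 9 with normexp (13.8%), 5 with quantile normalization (7.74%), 7 with the authors' series values (12.5%), 6 with the filter on all 8 arrays (10.3%), 5 with probes averaged (6.91%), 5 with each probe alone (3.15%) and 7 with probes on the own chromosome (8.14%). Without pairing the count of 0 became 7 with the replicate block and stayed at 0 elsewhere. The causes were not tested. The median difference lay between -0.07 and 0.15 when single samples were left out. The count of positive isoform contrasts was 7 or 8 throughout. Signs turned for Slc16a3 minus Slc16a1 (-0.16 with normexp, -0.10 with the authors' series values, -0.15 without control replicate 3, -0.25 without siRNA replicate 2 and up to 0.31 without others, 0.00 without pair 2), Hk2 minus Hk1 (-0.04 with probes on the gene's own chromosome) and Pfkm minus Pfkp (0.08 without siRNA replicate 2, down to -0.38 without others). The 7 genes kept their direction in all settings run. Left-out pairs for the median and the contrasts, and probes on the own chromosome, were added after seeing the data. Signal near background limits Ppp1r3a, Phkg1, Ppp1r3c and Fbp2.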
